A study of Mus musculus with 17 samples.

Results

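Macrophages that lack SOCS3 were compared with macrophages that carry it before any IL-6 was given. The comparison rests on 5 of the 17 arrays of the series, taken by their labels. Of these, 3 arrays (replicates 1 to 3) hold unstimulated macrophages derived from SOCS3-/- cells, called KO here, and 2 arrays (replicates 1 and 2) hold unstimulated macrophages derived from SOCS3+/+ cells, called WT. In both genotypes, irradiated mice had been reconstituted with cells of embryonic livers, and macrophages were grown from the donor-derived cells of their bone marrow. The other 12 arrays hold KO and WT macrophages after 100 or 400 min of IL-6 at 10 ng/ml, 3 arrays for each genotype and time. They do not enter the unstimulated group means. They do enter the normalization and the estimate of spread behind every unstimulated standard error and p-value. The labels give no mouse strain, name no deleted exon or clone, and do not say whether the numbered replicates are separate embryos, mice or cultures. All p-values therefore describe the spread among these arrays alone, and that spread may be technical.

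SOCS3, the suppressor of cytokine signalling 3, is induced by STAT3 and binds the phosphorylated receptor subunit gp130, where it holds back the JAK kinases and marks bound proteins for ubiquitination. It is best known in macrophages for ending the STAT3 signal of IL-6, while the signal of IL-10, whose receptor lacks a docking site for it, runs on. Cells without SOCS3 show prolonged STAT3 activity after IL-6. The comparison here asks which genes already differ in KO macrophages in the absence of added IL-6.

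The files give 1 positive intensity for each probe set, a set of short probes that reads 1 transcript, on each array. All intensities in the text are quantile normalized values; for the log2 differences, values below 22.01, the 10th percentile, were first set to that floor, so a difference that involves such values depends on the floor. Differences are KO minus WT on the log2 scale with the standard error (SE) of limma, a linear model fitted over all 17 arrays and 9871 probe sets, and adjusted p-values follow Benjamini and Hochberg over those 9871. The median SE of the unstimulated difference was 0.47, and the median 95% interval reached 1.02 to each side, so the number of arrays limits the precision. With 3 arrays against 2, the smallest two-sided p that an exact rank-sum test of 1 gene can give is 0.2. The correlation between the unstimulated arrays ran from 0.842 to 0.914 and was not closer within a genotype, with 0.914 for KO replicate 1 and WT replicate 1, against 0.904 for KO replicates 1 and 2 and 0.883 for the WT arrays. The arrays numbered 3 stood apart: on principal component 1 they had the highest value of every group that holds one, and among the unstimulated arrays KO replicate 3 lay at 45.21 on it, with 12.73% of the variance, while the other unstimulated arrays lay between -13.08 and 2.27. No unstimulated WT array carries the number 3. Its effect on an unstimulated value shows only by leaving KO replicate 3 out or taking replicate 3 as a batch over the other times. Such values are given beside several lists and beside Apoe, and for other genes only the single arrays are given. The Y-linked Eif2s3y read 12.8, 112 and 47.7 on the KO arrays, against 641 and 769 on the WT arrays, and Xist read 228, 231 and 993 in KO, against 71.3 and 188 in WT. The Y-linked Kdm5d (22.6, 61.6 and 162 in KO, against 45.3 and 20.8 in WT) and Uty (15.7, 19.2 and 38.7 in KO, against 28.5 and 17.1 in WT) were dim and overlapped. The part of this in the differences below was not tested, and genes on X and Y are left out from here on.

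Many macrophage markers were bright in both genotypes, while Aif1 (30.3 to 342) and Mertk (85 to 243) were dim. Lyz2, the lysozyme of myeloid cells, read 32380, 24110 and 31970 on the KO arrays, against 30090 and 27040 on the WT arrays. Cd68, a glycoprotein of macrophage endosomes, read 13510, 12500 and 14010 on the KO arrays, against 12850 and 11060 on the WT arrays. Csf1r, the receptor for the growth factor M-CSF, read 25380, 22290 and 14180 on the KO arrays, against 32960 and 28130 on the WT arrays, with no overlap and a log2 difference of -0.61 (SE 0.32). Over the 16 macrophage markers tested, the median difference was -0.08, and the summed intensity ran from 131100 to 158900 on the KO arrays and from 151000 to 166200 on the WT arrays. Tested markers of other cell types were dimmer than Lyz2, Cd68 and Csf1r. Csf3r, of the neutrophil list, read 616 to 1403 and the stromal Col1a2 869 to 1315. The macrophage marker Itgam read 745 to 1776. Brightest among the other cell types was Ighm, the heavy chain of IgM, on 1 of its probe sets. The next brightest Ighm probe set, at -0.99 (SE 0.58), had the same sign, and dimmer ones lay on both sides of 0. The brightest Ighm probe set read 3301, 3085 and 749 on the KO arrays, against 5135 and 5860 on the WT arrays. The B cell marker Cd79a was low (211, 138 and 74.4 on the KO arrays, against 117 and 66 on the WT arrays). So was Cd79b (132, 170 and 149 on the KO arrays, against 351 and 155 on the WT arrays). The summed B cell markers, 8 in all, ran from 1865 to 4576 on the KO arrays and from 6529 to 7077 on the WT arrays. The brightest Ighm probe set was the largest member of each sum. All other B cell markers tested overlapped between the groups. The T cell genes Cd3e, Cd3d, Cd3g and Cd8a were too dim to be tested. The 12 neutrophil and myeloid precursor markers had a median of -0.68, -0.26 without KO replicate 3 and -0.23 without WT replicate 2, with sums of 2144 to 3102 in KO and 2576 to 3499 in WT. In bulk RNA, fewer cells of a type and less RNA per cell cannot be told apart.

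Between unstimulated KO and WT cells limma called 0 of 9871 probe sets (0%), where called means an adjusted p under 0.05. At an unadjusted p under 0.05 there were 591 probe sets (5.99% of those tested), 345 higher (3.5%) and 246 lower (2.49%) in KO. Among 6844 named genes off X and Y, with 1 probe set each, the smallest adjusted p in limma was 0.354. Without WT replicate 1, 17 probe sets were called, 16 of them higher in KO, and 3 were called without WT replicate 3 at 100 min, and 9 on the arrays of replicates 1 and 2 alone. A lone WT array was taken to vary like the arrays of the other groups. The groups did not overlap for 765 of the 6844 genes with KO higher (11.2%) and for 841 with KO lower (12.3%). Below, "apart" means that every KO array lay on one side of both WT arrays. No gene below was called in unstimulated cells, except under a setting that is named, and the values are given as measured levels. The leading genes are the 12 with the smallest p in each direction.

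The leading genes higher in KO macrophages included Casp4, Mmp12 and Clcn7. Casp4 encodes the caspase, known in mice as caspase-11, that senses lipopolysaccharide in the cytosol. It read 396, 346 and 284 on the KO arrays, against 92.8 and 11.3 on the WT arrays. Every KO array was far above the brighter WT array, and the dimmer WT array lay under the floor. The difference was 2.91 (SE 0.59), with a 95% interval from 1.63 to 4.18 and an adjusted p of 0.354 in limma. Without WT replicate 1 the difference in Casp4 was 3.95 and called, with an adjusted p of 0.0286 in limma. Mmp12 encodes macrophage metalloelastase, which cleaves elastin. Its first probe set read 4166, 3106 and 7018 on the KO arrays, against 623 and 388 on the WT arrays, a difference of 3.19 (SE 0.86), and its second read 1576, 1703 and 1972 on the KO arrays, against 441 and 408 on the WT arrays, a difference of 2.04 (SE 0.50). On both probe sets the KO and WT arrays were apart by a wide gap, and KO replicate 3 was the brightest array. Clcn7 encodes the chloride and proton exchanger of lysosomes. It read 1707, 1471 and 1445 on the KO arrays, against 712 and 813 on the WT arrays, a difference of 1.01 (SE 0.25), and its second probe set gave 0.77 (SE 0.50). Ocel1, which encodes a protein with an occludin-like domain, read 1281, 1497 and 882 on the KO arrays, against 379 and 241 on the WT arrays. Its difference was 1.98 (SE 0.48). At 400 min of IL-6 the groups overlapped for Ocel1, with WT replicate 3 at 1020 and KO at 1037, 1236 and 679.

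The other genes of this group were dimmer. Alkbh5, which removes N6-methyl groups from adenosine in RNA, read 234, 405 and 208 on the KO arrays, against 99.5 and 28.1 on the WT arrays (2.35, SE 0.58). Rnaseh1, which cuts the RNA strand of RNA-DNA hybrids, read 122, 162 and 140 on the KO arrays, against 27.6 and 68.5 on the WT arrays (1.69, SE 0.38). Hal, the first enzyme of histidine breakdown, read 452, 285 and 424 on the KO arrays, against 143 and 133 on the WT arrays (1.46, SE 0.38). In all of the 24 leading genes, which were chosen by their p, the groups were apart. Hipk3, a homeodomain-interacting protein kinase, had a difference of 1.06 (SE 0.26), Rabgap1l, related to Rab GTPase-activating proteins, of 1.83 (SE 0.39), and Ubxn11, a UBX domain protein, of 1.63 (SE 0.32). Ubxn11 had the smallest p of all named genes (288, 296 and 219 on the KO arrays, against 89 and 82.4 on the WT arrays), and a dimmer second probe set gave 1.43 (SE 0.95). Ankrd49, an ankyrin repeat gene, was at 1.65 (SE 0.35) and Rundc3a, a RUN domain gene, at 2.30 (SE 0.60).

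Among the leading genes lower in KO, Hpgd had the largest difference of all 6844 genes. It encodes 15-hydroxyprostaglandin dehydrogenase, which inactivates prostaglandin E2. Hpgd read 18.1, 13.5 and 115 on the KO arrays, against 1749 and 1274 on the WT arrays. The KO arrays of replicates 1 and 2 were under the floor, and the brightest KO array was far below the dimmer WT array. The fitted difference was -5.29 (SE 1.22), with a 95% interval from -7.91 to -2.67 and an adjusted p of 0.45 in limma. It was called without WT replicate 3 at 100 min, with an adjusted p of 0.032, and on replicates 1 and 2 alone, with an adjusted p of 0.03 in limma. Akr1c13, an aldo-keto reductase, read 617, 457 and 588 on the KO arrays, against 1266 and 1367 on the WT arrays, a difference of -1.26 (SE 0.30). Ctla2b, which encodes a small protein related to the propeptide of cysteine proteases, read 474, 380 and 330 on the KO arrays, against 986 and 941 on the WT arrays, a difference of -1.30 (SE 0.31). The KO arrays of Akr1c13 and Ctla2b lay close together and well under the WT arrays.

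Padi4, which converts arginine in histones to citrulline and is known from neutrophils, read 69.9, 71 and 67.1 on the KO arrays, against 254 and 624 on the WT arrays, a difference of -2.52 (SE 0.57). Without WT replicate 3 at 100 min Padi4 was called, with an adjusted p of 0.032 in limma. The KO values lay within a few units of each other, and the WT arrays differed more from each other. The remaining 8 genes, Tnnc2, Kif5a, Cacng2, Mphosph10, Tpst2, Ly6h, Kifc2 and Fam151a, were dim, with differences between -2.79 and -1.60. Tnnc2, known as a troponin of fast skeletal muscle, read 44.5, 74.1 and 44.8 on the KO arrays, against 172 and 409 on the WT arrays, and its other probe set was too dim to be tested. Kif5a and Kifc2 encode kinesin motors, and Kifc2 read 21.6, 35 and 32.2 on the KO arrays, against 133 and 306 on the WT arrays, with 1 KO array under the floor. Tpst2, which sulfates tyrosines of secreted proteins, read 36.2, 108 and 29.7 on the KO arrays, against 148 and 233 on the WT arrays.

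**Figure D1:**
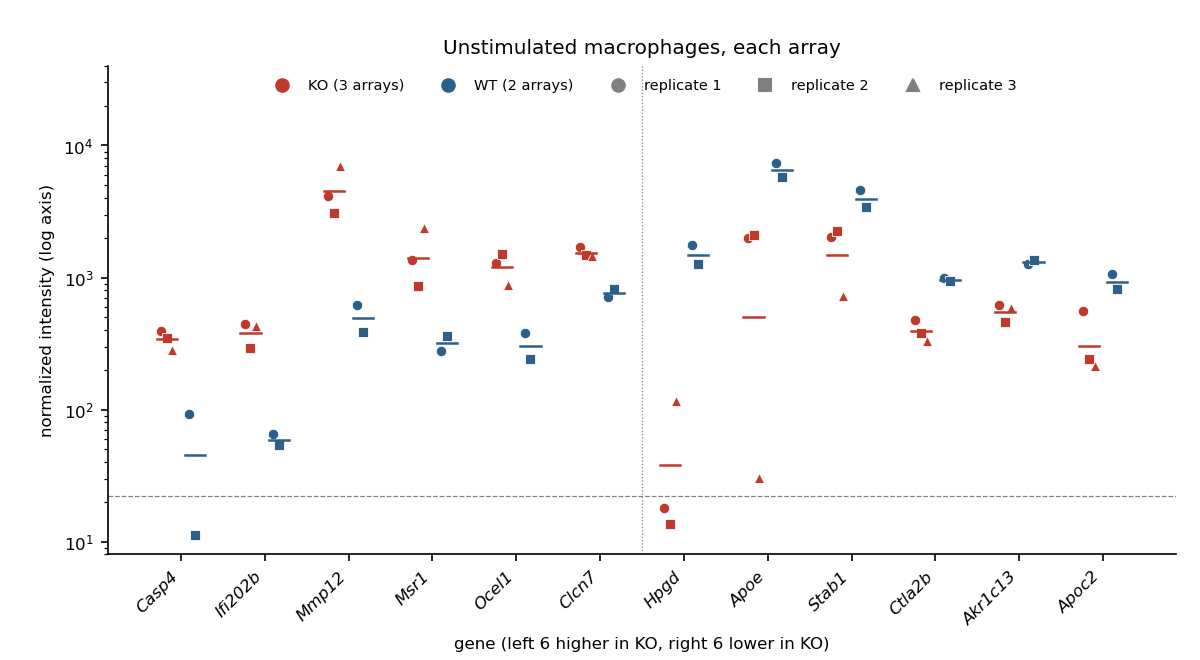
Normalized intensity (log axis) of 12 genes named in the text on each unstimulated array, KO in red at the left of each gene and WT in blue at the right. Symbols give the replicate, bars the geometric mean after the floor (dashed line, 22.01). KO arrays lie above WT arrays in the left 6 genes and below them in the right 6, and KO replicate 3 is far below the other KO arrays for Apoe.

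Socs3 itself was dim without IL-6. A pair of probe sets on chromosome 11 reads it. The brighter one read 73.1, 24.6 and 108 on the KO arrays, against 181 and 80.3 on the WT arrays, so KO replicate 3 lay above WT replicate 2 and the groups overlapped. The difference was -1.06 (SE 0.88), with a 95% interval from -2.94 to 0.83. The dimmer probe set of Socs3 read 20.6, 23.6 and 16.5 on the KO arrays, against 115 and 54.9 on the WT arrays, a difference of -1.82 (SE 0.99). On it all KO arrays lay below both WT arrays, at or near the floor. After IL-6 the brighter Socs3 probe set separated the genotypes more widely: at 100 min it read 129, 121 and 333 in KO, against 1290, 1186 and 483 in WT. At 400 min Socs3 read 121, 79.4 and 793 in KO, against 1326, 1105 and 1289 in WT. On this probe set, KO replicate 3 at 400 min was far above the other KO arrays of that time, against its label. Values at 400 min rest in part on that array. Over both times together, the brighter Socs3 probe set was at -2.52 (limma adjusted p = 0.0772). The dimmer one was at -3.74 (limma adjusted p = 0.0134).

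The start of Socs3 is shown because the gene is itself a STAT target. The 300 bases run from 250 before to 50 after the RefSeq start (chr11:117969317-117969616, minus strand, GRCm38.p6), with capitals at a match to the STAT motif TTCNNNGAA, searched on both strands. The match began 154 bases before the start.
Socs3: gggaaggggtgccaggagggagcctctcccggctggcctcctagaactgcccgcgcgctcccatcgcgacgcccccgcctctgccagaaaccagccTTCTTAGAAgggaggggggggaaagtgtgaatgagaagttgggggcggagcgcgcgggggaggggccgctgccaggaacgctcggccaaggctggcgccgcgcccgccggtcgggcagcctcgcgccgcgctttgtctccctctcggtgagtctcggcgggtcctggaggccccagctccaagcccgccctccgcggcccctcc
The motif was found in 8.3% of all 32851 promoter windows of this length and in 21.1% of the 38 windows of genes on the list of targets of STAT3 and of IL-6 or IL-10. It was found in 23.7% of the 38 windows of the list of genes stimulated by type I interferon, so the share was not particular to the STAT3 list. A match describes letters, not binding.

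Genes of the SOCS, IL-6 receptor, JAK and STAT list differed little as a group. Of 40 listed genes 35 were on the array and 32 were tested. The median difference was -0.01, against -0.01 over all 6844 genes. In 7 of the 32 the arrays were apart with KO higher and in 3 with KO lower, against 11.2% and 12.3% of all genes. Il6ra, the ligand-binding chain of the IL-6 receptor, had the largest difference. It read 299, 382 and 553 on the KO arrays, against 274 and 41.2 on the WT arrays. KO arrays were all above WT, but WT replicate 1 was close to the dimmest KO array and WT replicate 2 far below it. The difference in Il6ra was 1.91 (SE 0.60), with an adjusted p of 0.676 in limma. Without WT replicate 1 it was 3.28 and called, with an adjusted p of 0.0239 in limma, so its size rests on the other WT array. The stimulated arrays gave Il6ra a difference of -0.02.

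Il6st and Stat3 were bright, with differences near 0. Il6st, which encodes gp130, read 789, 796 and 368 on the KO arrays, against 907 and 551 on the WT arrays (-0.20, SE 0.51), and a second probe set of Il6st gave 0.34 (SE 0.37). Stat3 read 1907, 2019 and 1438 on the KO arrays, against 1745 and 2060 on the WT arrays (-0.10, SE 0.28). The KO and WT arrays overlapped in both genes. The 95% interval for Stat3 ran from -0.70 to 0.50, and the interval for Jak1 (-0.09, SE 0.37), a kinase bound to gp130, from -0.89 to 0.71. Tyk2, a kinase of interferon and IL-10 receptors, read 273, 200 and 457 on the KO arrays, against 419 and 53.7 on the WT arrays (0.96, SE 0.86), so the WT arrays differed widely and the groups overlapped.

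Among the inhibitors, Socs1, a relative of Socs3 that acts on interferon receptors, read 258, 319 and 283 on the KO arrays, against 236 and 156 on the WT arrays. All KO arrays were above both WT arrays, by a small gap, and the difference was 0.58 (SE 0.52). Cish, an inhibitor of STAT5 signals, read 272, 218 and 92.8 on the KO arrays, against 282 and 401 on the WT arrays (-0.93, SE 0.68), with KO replicate 3 the lowest. Ptpn2 and Pias1, a phosphatase and a SUMO ligase that act on STATs, were apart with KO higher, at 0.47 (SE 0.27) and 0.55 (SE 0.32). Among receptors of related cytokines, Lifr was the lowest gene of the list. Lifr read 442, 700 and 112 on the KO arrays, against 795 and 1073 on the WT arrays (-1.50, SE 0.95), and its other 4 probe sets gave differences of -0.78, -0.79, -0.95 and -1.14. Osmr, the oncostatin M receptor chain, was at -0.77 (SE 0.71) and the interferon receptor gene Ifnar1 at 0.70 (SE 0.33).

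**Figure D2:**
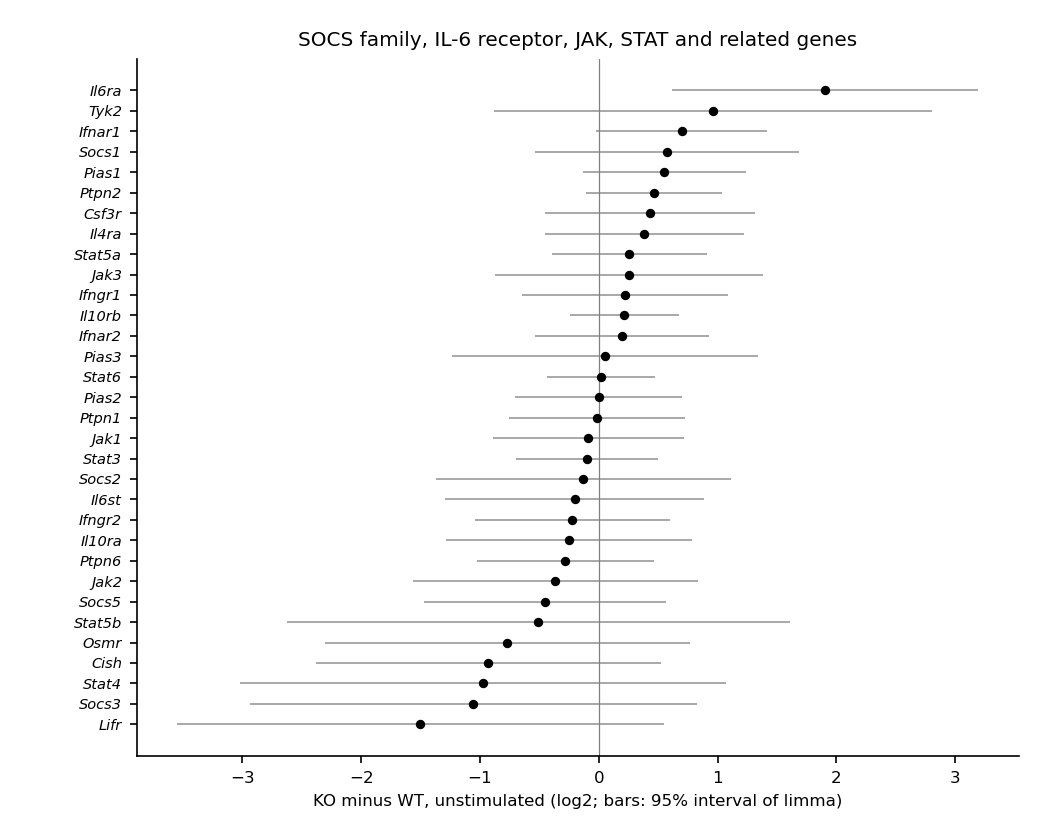
KO minus WT in unstimulated macrophages (log2) for the 32 tested genes of the SOCS, IL-6 receptor, JAK and STAT list, with the 95% interval of limma as bars. Points run from Lifr at -1.50 to Il6ra at 1.91, and the intervals of all but Il6ra include 0.

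The STAT3 target list, which also holds genes induced by IL-6 or IL-10, showed no common direction at rest. Of 41 tested, 16 were positive and 25 negative, with a median of -0.07; 9 were apart with KO higher and 6 with KO lower, where 11.2% and 12.3% of all genes were. Hif1a, the oxygen-regulated subunit of HIF-1, read 3224, 3102 and 4342 on the KO arrays, against 2667 and 2285 on the WT arrays (0.51, SE 0.24), and its second probe set gave 0.53 (SE 0.25). Fcgr2b, the inhibitory IgG receptor, read 240, 200 and 658 on the KO arrays, against 138 and 146 on the WT arrays (1.16, SE 0.57). Both genes were higher on every KO array. Arg1, arginase 1, read 63.8, 21 and 67 on the KO arrays, against 108 and 158 on the WT arrays (-1.52, SE 0.93), and Lcn2, lipocalin 2, 199, 349 and 198 on the KO arrays, against 309 and 458 on the WT arrays (-0.65, SE 0.36). In the stimulated arrays, 33 of the 41 genes were positive.

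Genes stimulated by type I interferon lay lower in unstimulated KO macrophages on balance, although none was called. Many of these genes act to block viral replication. Of 36 tested, 27 were negative and 9 positive, with a median of -0.33, against -0.01 over all genes. In 15 the arrays were apart with KO lower and in 3 with KO higher, where 12.3% and 11.2% of all genes were. Ifit3, which binds viral RNA complexes with its relatives, read 595, 581 and 331 on the KO arrays, against 1203 and 1355 on the WT arrays (-1.39, SE 0.94). Ifit2 read 356, 287 and 249 on the KO arrays, against 802 and 598 on the WT arrays (-1.24, SE 0.79). In both genes the KO arrays lay well below the WT arrays, with KO replicate 3 the lowest. Isg15, a ubiquitin-like protein, read 956, 942 and 1059 on the KO arrays, against 1372 and 1601 on the WT arrays (-0.59, SE 0.43), and here KO replicate 3 was the highest KO array. Trim30a, a RING finger protein of macrophages, read 411, 426 and 307 on the KO arrays, against 637 and 568 on the WT arrays (-0.67, SE 0.41), and the guanine nucleotide-binding Mx1 166, 163 and 111 on the KO arrays, against 327 and 248 on the WT arrays (-0.98, SE 0.90). Adar, an RNA editing enzyme, went the other way on its brighter probe set, with 306, 403 and 376 on the KO arrays, against 249 and 52.5 on the WT arrays (1.65, SE 0.74), but its second probe set gave -0.32 (SE 0.84). With replicate 3 as a batch over all times the median of the list was -0.12. Without KO replicate 3 the median of the list was -0.17, and 15 genes were apart with KO lower and 5 with KO higher, where 17.4% and 17.9% of all genes were. In the stimulated arrays the same list had a median of 0.76, with 32 of 36 genes positive. The median was 0.50 at 100 min and 1.03 at 400 min.

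The starts of Ifit3 and Isg15 are shown as those of genes that lay lower in KO at rest. Capitals mark matches to the interferon-stimulated response element, searched on both strands as GAAA, 2 bases of any kind and GAAA again, in the 300 bases around each RefSeq start (GRCm38.p6). Ifit3 lies at chr19:34583279-34583578, plus strand, with 2 matches, and Isg15 at chr4:156200769-156201068, minus strand, with 3 matches that overlap each other. The letters of this motif can also overlap those of the STAT motif.
Ifit3: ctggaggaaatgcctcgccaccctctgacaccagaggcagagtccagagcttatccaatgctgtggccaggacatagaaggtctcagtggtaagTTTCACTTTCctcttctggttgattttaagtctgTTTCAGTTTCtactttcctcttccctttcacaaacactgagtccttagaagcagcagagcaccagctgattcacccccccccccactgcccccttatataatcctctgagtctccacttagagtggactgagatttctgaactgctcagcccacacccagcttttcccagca
Isg15: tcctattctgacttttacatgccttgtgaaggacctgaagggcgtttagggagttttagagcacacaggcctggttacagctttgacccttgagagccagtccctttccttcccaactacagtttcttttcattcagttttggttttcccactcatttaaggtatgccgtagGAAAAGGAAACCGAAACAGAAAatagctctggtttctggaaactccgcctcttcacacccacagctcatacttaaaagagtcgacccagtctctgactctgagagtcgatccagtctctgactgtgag
The element was found in 3.44% of all windows and in 17 of the 38 windows (44.7%) found for 28 genes of the interferon list. The matches in Ifit3 and Isg15 describe letters only.

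**Figure D3:**
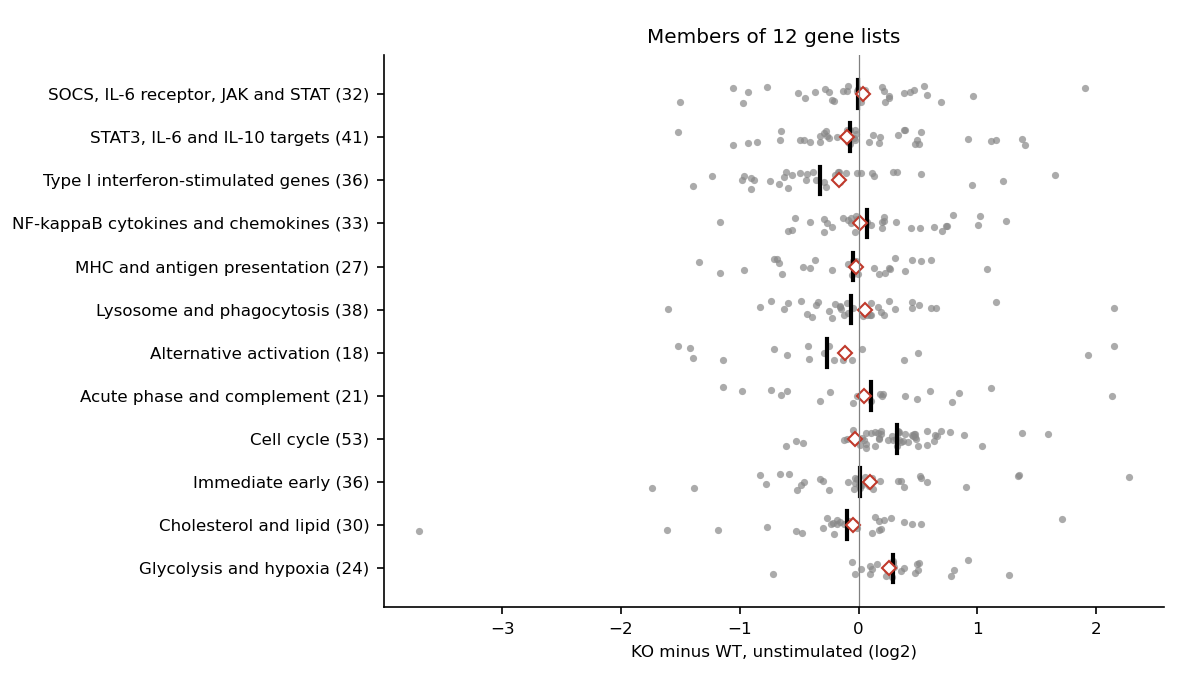
KO minus WT in unstimulated macrophages (log2) for the members of 12 gene lists, with the number tested in parentheses. Each dot is 1 gene, the black bar is the list's median and the open diamond is its median without KO replicate 3. The interferon list has its median at -0.33, the glycolysis and hypoxia list at 0.29, and the cell cycle list at 0.33 with its diamond at -0.03.

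Glycolysis and hypoxia genes lay slightly higher in KO. Of 24 tested, 21 were positive and 3 negative, with a median of 0.29. In 7 the arrays were apart with KO higher and in 0 with KO lower, where 11.2% and 12.3% of all genes were. P4ha1, a subunit of collagen prolyl hydroxylase, read 291, 377 and 335 on the KO arrays, against 288 and 66.9 on the WT arrays (1.26, SE 0.53), with WT replicate 1 close to the KO arrays. Pgam1, phosphoglycerate mutase, read 5221, 5302 and 8581 on the KO arrays, against 5072 and 3799 on the WT arrays (0.50, SE 0.33), and Hmox1, heme oxygenase 1, 6835, 7112 and 5645 on the KO arrays, against 4261 and 5135 on the WT arrays (0.47, SE 0.29). In all 3 genes the KO arrays were higher by a small gap. Bright enzymes such as the aldolase Aldoa (0.11, SE 0.23) and the pyruvate kinase Pkm (-0.03, SE 0.33) had differences near 0. Without KO replicate 3, the median was 0.26, with 11 genes apart as KO higher and 2 as KO lower, where 17.9% and 17.4% of all genes were. The stimulated arrays gave the list a median of 0.29, with 17 of 24 positive.

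The positive median of the cell cycle genes was not seen without KO replicate 3. Of 53 tested, 45 were positive, with a median of 0.33; without KO replicate 3 the median was -0.03, with 25 positive and 28 negative. Rrm2, a subunit of ribonucleotide reductase, read 663, 484 and 3711 on the KO arrays, against 383 and 324 on the WT arrays. Cdk1, the mitotic kinase, read 1873, 1487 and 4279 on the KO arrays, against 1555 and 1778 on the WT arrays. In both, KO replicate 3 stood far above the other 4 arrays. Pcna, the sliding clamp of replication, read 6635, 7210 and 9402 on the KO arrays, against 5289 and 4624 on the WT arrays (0.63, SE 0.32), and its arrays of replicates 1 and 2 were also above the WT arrays. The summed intensity of the list was 59400, 57860 and 104000 on the KO arrays, against 59070 and 55790 on the WT arrays.

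Lipid and phagocytosis genes held some of the widest gaps, in both directions. Apoe, the apolipoprotein that carries cholesterol out of macrophages, read 1993, 2084 and 30.3 on the KO arrays, against 7372 and 5728 on the WT arrays. All KO arrays were below both WT arrays, and KO replicate 3 was near the floor. The difference was -3.70 (SE 1.65), and -1.68 without that array. Apoc2, a neighbour in the same gene cluster on chromosome 7 and an activator of lipoprotein lipase, read 554, 240 and 213 on the KO arrays, against 1066 and 812 on the WT arrays (-1.61, SE 0.67). Apoc1, also of that cluster, overlapped, with 152, 41.9 and 70.4 on the KO arrays, against 154 and 110 on the WT arrays (-0.77, SE 0.57). Fabp4, a fatty acid-binding protein, read 155, 176 and 133 on the KO arrays, against 67.7 and 32.3 on the WT arrays (1.71, SE 0.62), with all KO arrays higher. The lipid list as a whole did not lean: 11 of 30 tested genes were positive, with a median of -0.10, and 3 genes were apart with KO higher and 3 with KO lower, where 11.2% and 12.3% of all genes were.

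Scavenger receptors went opposite ways. Msr1, the class A receptor for modified lipoproteins, read 1361, 867 and 2386 on the KO arrays, against 277 and 363 on the WT arrays (2.15, SE 0.65, adjusted p = 0.621 in limma), and its second probe set read 973, 929 and 1427 on the KO arrays, against 314 and 254 on the WT arrays (1.95, SE 0.66). Both probe sets had every KO array well above both WT arrays. Stab1, another receptor that takes up modified lipoproteins, read 2036, 2234 and 718 on the KO arrays, against 4566 and 3434 on the WT arrays (-1.42, SE 0.73), with every KO array lower. Mrc1, the mannose receptor, read 795, 441 and 275 on the KO arrays, against 1304 and 1112 on the WT arrays (-1.39, SE 1.11). It was also lower on every KO array. The stimulated arrays gave Mrc1 a difference of the opposite sign, 0.94, and Stab1 one of -1.26. After IL-6, WT replicate 3 lay within the KO range on the first Msr1 probe set (2000 at 100 min and 1303 at 400 min). The same held for Stab1 at 100 min (675). Among lysosomal enzymes, Ctsl, cathepsin L, read 15780, 14010 and 7558 on the KO arrays, against 22290 and 19940 on the WT arrays (-0.83, SE 0.37) and Asah1, acid ceramidase, 2865, 2134 and 1740 on the KO arrays, against 4097 and 3284 on the WT arrays (-0.74, SE 0.27), both lower on all KO arrays. Itgb2, the beta chain of leukocyte integrins, read 5645, 4911 and 5860 on the KO arrays, against 4122 and 3578 on the WT arrays (0.51, SE 0.23). Of the 38 genes of this list 18 were positive, with a median of -0.07, and 8 were apart with KO higher and 6 with KO lower, where 11.2% and 12.3% of all genes were. Without KO replicate 3 its median was 0.05. Alternative activation genes, 18 tested, had a median of -0.27, or -0.11 without KO replicate 3. Fn1, fibronectin, went against that list with 100, 202 and 164 on the KO arrays, against 46.1 and 33.2 on the WT arrays (1.93, SE 0.59), while the other stromal markers tested overlapped between the groups, with differences from -1.09 (Cxcl12) to 0.72 (Thy1).

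Among the other immune lists, the medians of 4 functional lists lay between -0.05 and 0.11. NF-kappaB cytokines and chemokines, 33 tested, had a median of 0.07, with 4 apart as KO higher and 3 as KO lower, where 11.2% and 12.3% of all genes were. Ccl2, a monocyte chemoattractant, read 445, 352 and 368 on the KO arrays, against 236 and 153 on the WT arrays (1.02, SE 1.01), and Clec4e, a receptor for mycobacterial glycolipid, 137, 129 and 370 on the KO arrays, against 62.9 and 99.7 on the WT arrays (1.24, SE 0.56). In both genes every KO array was the higher. MHC and antigen presentation genes, 27 tested, had a median of -0.05. Psme1 and Psmb10, parts of the immunoproteasome system, were at -0.65 (SE 0.27) and -0.71 (SE 0.42), and Cd86, a costimulatory ligand of T cells, at 1.08 (SE 0.46). Acute phase and complement genes, 21 tested, had a median of 0.11, with the complement receptor gene C5ar1 at 0.78 (SE 0.30). The bright C1qb, a chain of complement C1q, was at -1.14 (SE 0.74). It read 15630, 15980 and 4841 on the KO arrays, against 23900 and 23000 on the WT arrays. A far dimmer probe set of C1qb gave 0.15 (SE 0.60). Immediate early genes, 36 tested, had a median of 0.01, or 0.12 with replicate 3 as a batch. Fosl1, a partner in AP-1, was at -1.74 (SE 0.72) and Zfp36l1, which destabilises mRNAs, at -1.38 (SE 0.64). Lists of T and NK cells, erythroid cells, mast cells, stroma and dendritic cells with osteoclasts had 3 to 8 tested genes each. In each list 0 or 1 gene was apart in either direction, where 11.2% (KO higher) and 12.3% (KO lower) of all genes were. Their medians were 0.10, -0.23, 0.74, -0.12 and 0.04, in that order. Without KO replicate 3 these medians were 0.45, 0.21, 0.19, 0.01 and 0.25.

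The 12 stimulated arrays give a reading of the same genotypes on other arrays, within the same fit. There, the mean of the KO minus WT differences at 100 and 400 min called 52 probe sets (0.527% of 9871), 42 higher and 10 lower in KO. Of the 24 leading genes of unstimulated cells, 19 had the same sign in that mean, where 55.64% of all genes did. The mean can hide opposite signs at the 2 times. Rabgap1l was at 2.31 at 100 min and -1.76 at 400 min, and Rnaseh1 at -0.47 and 2.28. The sign was the same at 0, 100 and 400 min in 12 of the 24, where it was in 34.5% of all genes. At an unadjusted p under 0.05 and the same sign were 9 of the 24, and 0 with the opposite sign, where 9.82% of all genes had such a p. Both p-values of a gene rest on the same estimate of its spread, and the 24 were chosen by p. A gene with a small spread tends to a small p in both, so these shares cannot be compared directly. Called in limma's test were Casp4, at 1.90 (SE 0.37, limma adjusted p = 0.0386), and Ctla2b, at -0.96 (SE 0.20, limma adjusted p = 0.0492). The call was lost for Casp4 in 11 of 17 fits that leave out 1 array (adjusted p of up to 0.122 in limma) and for Ctla2b in 14 of 17 (up to 0.144). The count of 52 was 32 without KO replicate 2 at 100 min and 100 with replicate 3 as a batch. The second Mmp12 probe set was called as well, at 1.57 (limma adjusted p = 0.045, and up to 0.126 without 1 array). The first was at 2.32 (SE 0.54, limma adjusted p = 0.0972). Hpgd was at -3.19 (SE 0.77, limma adjusted p = 0.108), and Clcn7 and Akr1c13 were at 0.64 (SE 0.16, limma adjusted p = 0.116) and -0.78 (SE 0.19, limma adjusted p = 0.108). In contrast, Ubxn11 (0.08), Ankrd49 (-0.14) and Rundc3a (0.02) were near 0 there. For Ubxn11 that mean held -0.38 at 100 min and 0.53 at 400 min, and for Rundc3a 0.49 and -0.45.

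**Figure D4:**
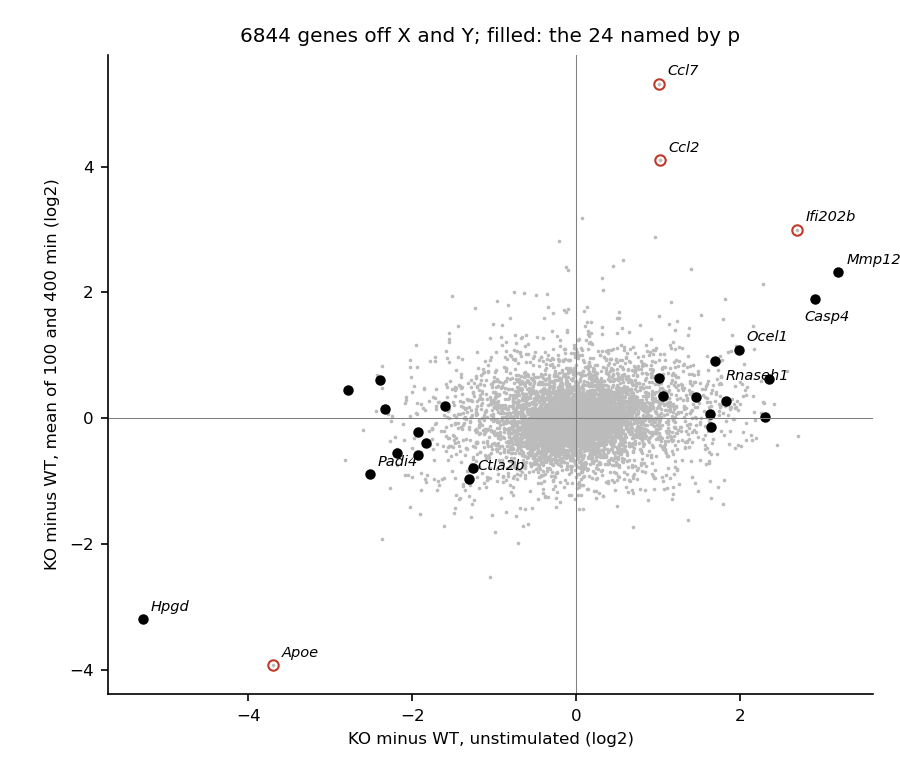
KO minus WT (log2) in unstimulated macrophages, horizontal axis, against the mean of the KO minus WT differences at 100 and 400 min, vertical axis, for 6844 genes off X and Y. Black points are the 24 leading genes, and red rings mark 4 other genes named in the text. Casp4, Mmp12 and Ifi202b lie high on both axes, Hpgd and Apoe low on both, and Ccl7 and Ccl2 high on the vertical axis.

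Over all genes the unstimulated and stimulated differences were weakly related. Of 402 genes with an unadjusted p under 0.05 in unstimulated cells, 256 (63.68%) had the same sign in the stimulated mean, against 55.64% of all genes. The correlation across the 6844 genes was 0.15 (Pearson) and 0.13 (Spearman); genes are not independent, and all arrays share their processing. On the arrays of replicates 1 and 2 alone, 68.34% of 477 such genes had the same sign, against 57.78% of all. No probe set was called for a difference between the unstimulated and the stimulated mean in limma (0 of 9871, with 463, 4.69%, at an unadjusted p under 0.05), so none of the differences is shown to be particular to resting cells.

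A small group of genes kept the genotypes apart at every time. At 0, 100 and 400 min alike, all KO arrays lay above all WT arrays of that time in 21 genes (0.307%) and below them in 17 (0.248%). Without the array labelled KO replicate 3 at 400 min these were 28 genes (0.409%) and 30 genes (0.438%). The higher ones included Casp4, Clcn7, Hif1a, Fcgr2b, Ccl2, Socs1 and Ifi202b, and the lower ones Apoe, Apoc2, Ctla2b and Akr1c13. Across all times together, every one of the 9 KO arrays lay on one side of every one of the 8 WT arrays in 7 genes. Socs1 and Sypl (synaptophysin-like) were higher throughout (0.0292%), and Ctla2b, Akr1c13, Apoe, Dbi and Ndufb5 lower (0.0731%). Apoe ran from 29.9 to 2084 on the KO arrays and from 2583 to 9363 on the WT arrays. Ctla2b ran from 329.5 to 650.5 in KO and from 660 to 1218 in WT, so the gap was narrow. Dbi, which binds acyl-CoA esters, and Ndufb5, a subunit of respiratory complex I, had small unstimulated differences of -0.30 (SE 0.21) and -0.35 (SE 0.20).

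Ifi202b, chosen after its values were seen, belongs to the p200 family of interferon-inducible genes that includes DNA sensors, and its level is known to differ between inbred mouse strains. Unstimulated, it read 444, 290 and 433 on the KO arrays, against 65.1 and 53.6 on the WT arrays, a difference of 2.69 (SE 0.82). Every KO array was far above both WT arrays. At 100 min Ifi202b read 1783, 1619 and 1077 in KO, against 165, 138 and 660 in WT, and at 400 min 1438, 1642 and 1729 in KO, against 109, 50 and 600 in WT. The stimulated mean was 3.00 (SE 0.52, limma adjusted p = 0.0165). Without KO replicate 2 at 100 min its adjusted p in limma was 0.0532. WT replicate 3 was the brightest WT array for Ifi202b at both times. Since the labels give no strain, a strain difference between the donors cannot be told apart from the genotype in these arrays.

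**Figure D5:**
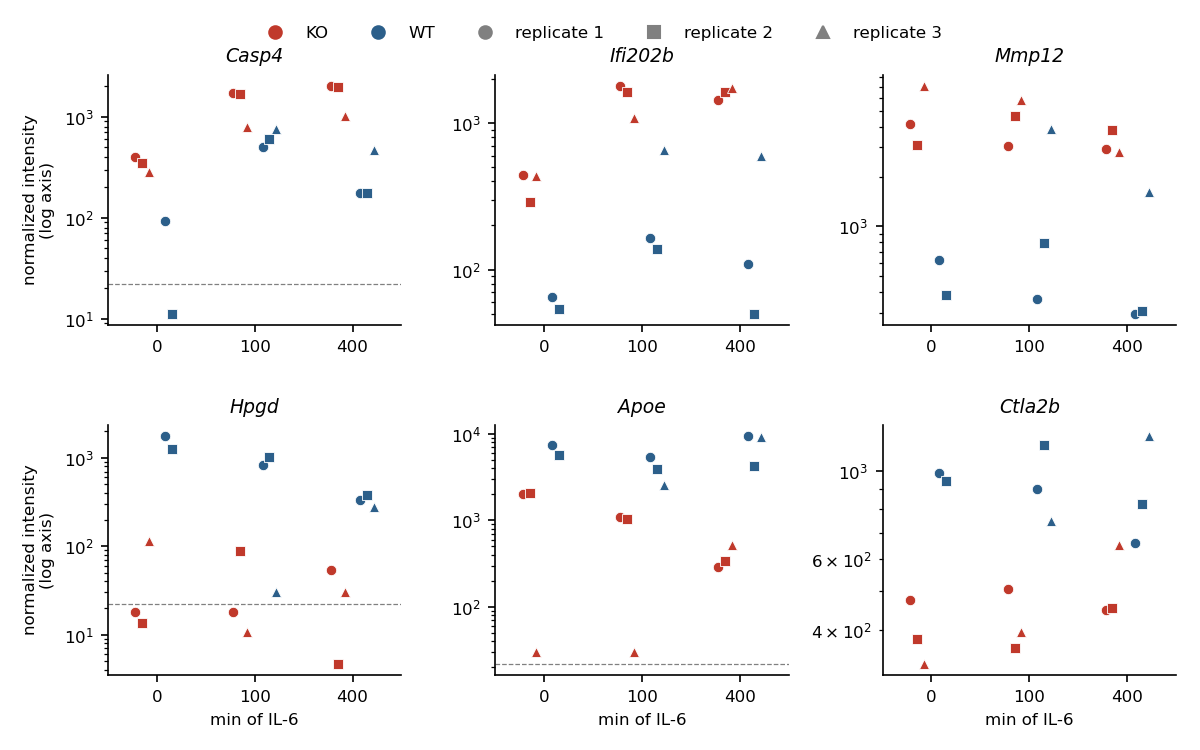
Normalized intensity (log axis) of 6 genes on each of the 17 arrays by minutes of IL-6, KO in red at the left and WT in blue at the right of each time; symbols give the replicate and the dashed line the floor of 22.01 where it falls in the panel. KO lies above WT for Casp4 and Ifi202b and below WT for Apoe and Ctla2b at all 3 times, while replicate 3 of WT lies among the KO arrays for Mmp12 and Hpgd at 100 min.

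Genes called in the stimulated mean were chosen by their stimulated values, so their size there and at rest cannot be compared directly. Of 31 such genes higher in stimulated KO cells (median 1.80), 20 were positive and 11 negative unstimulated, with a median of 0.12. Apart with KO higher were 9 and with KO lower 3, where 11.2% and 12.3% of all genes were. Ccl7, a monocyte chemoattractant, read 100, 116 and 9.13 on the KO arrays, against 30.2 and 32.9 on the WT arrays, and Ccl4 280, 358 and 300 on the KO arrays, against 257 and 244 on the WT arrays (0.31, SE 0.36). For Ccl7 the arrays overlapped, and for Ccl4 the gap was small. Irf1, a transcription factor of interferon responses, read 586, 903 and 553 on the KO arrays, against 960 and 913 on the WT arrays (-0.50, SE 0.40). All KO arrays were below WT, KO replicate 2 only just. Gbp2, a guanylate-binding protein, was at -0.10 (SE 0.49) and Cxcl10, a chemokine for T cells, at 0.32 (SE 0.51). Jun, a subunit of AP-1, read 198, 302 and 129 on the KO arrays, against 310 and 400 on the WT arrays (-0.83, SE 0.46), lower on every KO array. The interaction was not called for any of them: the smallest adjusted p of a difference between unstimulated and stimulated in limma was 0.383. Casp4 and Ifi202b were the 2 of the 31 with an unadjusted p under 0.05 at rest.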

How the data were processed

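Gene expression of mouse bone marrow-derived macrophages was measured on 17 one-colour arrays, from total RNA. The deposited table holds 1 linear intensity per probe set and array, already scaled when the authors deposited it, as the near-equal trimmed means of the arrays show; not given in the sources used here are the scaling target, background correction and software. Since the array medians of the deposited intensities differed by 0.401 on the log2 scale, the intensities were quantile normalized, raised to 22.01 (the 10th percentile) where lower, and log2 transformed. Of 12488 probe sets, 66 controls were left out, and 9871 were tested, those above the 40th percentile of an array on 2 or more arrays. Differences were tested with limma (3.58.1, R 4.3.3): 6 group means over 17 arrays, moderated two-sided contrasts (prior degrees of freedom 2.6, residual 11) and Benjamini-Hochberg adjustment at 0.05, checked on simulated data. The platform's annotation gave 1 symbol to 10855 probe sets, several to 396 and none to 1237; genes were read by the probe set of highest mean. Named genes, off X and Y and with a group mean above the 40th percentile, were the called ones, the 12 with the smallest p in each direction, up to 4 with the smallest p in each of 20 gene lists, and the SOCS, receptor, JAK and STAT genes; Ifi202b, Sypl, Dbi, Ndufb5, the Id genes and the members added as examples were chosen after their values were seen. The members and lists were chosen with earlier results of these data known. The arrays numbered 3 deviated together (residual r from 0.1004 to 0.2365 over 10 pairs), while those numbered 1 and 2 did not (median r 0.0403 and 0.0419, 15 pairs each), so the numbers do not pair all samples; replicate 3 as a batch is an alternative. Promoter sequences are from RefSeq (GRCm38.p6). Alternatives were the deposited values, median scaling, an offset, other filters, an intensity trend, replicate blocks, fewer arrays and each array left out.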

Additional observations from a re-analysis of the deposited data

How the results depend on the processing

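Unstimulated, 0 probe sets were called with an offset of 50, an intensity trend, the 5 unstimulated arrays alone, the replicate block (0) or replicate 3 as a batch (0). The count was 1 with the deposited values, median scaling, no filter or a filter at the 60th percentile, and 9 (3 higher, 6 lower) on replicates 1 and 2 only. Leaving out 1 array gave 0 to 17. For the stimulated mean the count of 52 became 90 with the filter at the 60th percentile, 112 with an intensity trend, 83 with the replicate block, 100 with replicate 3 as a batch and 198 on replicates 1 and 2 only, and 32 to 72 without 1 array. For the difference between unstimulated and stimulated it was 1 without a filter, 1 with the replicate block, 3 with replicate 3 as a batch, 11 on replicates 1 and 2 only, and 0 to 2 without 1 array. The causes were not tested. Of 1875 alternatives over the named genes in unstimulated cells, 1868 kept sign and side of the threshold and 7 gained a call (Ubxn11, Hpgd and the second Mmp12 probe set on replicates 1 and 2, Casp4 and Il6ra without WT replicate 1, Padi4 and Hpgd without WT replicate 3 at 100 min); 0 reversed. In the stimulated mean 211 of 286 kept theirs, 48 lost and 27 gained a call. Of 540 alternatives for list medians, 27 moved by more than the spread between arrays. Medians near 0 changed sign, such as those of the STAT3 targets with median scaling (0.01) and the NF-kappaB cytokines without WT replicate 1 (-0.08). The median of the 3 mast cell markers went from 0.74 to -0.22 without WT replicate 1. That of the interferon list was -0.12 with the replicate block. Without detection calls in the deposited table, dim values could not be set against background.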

Other observations

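Genes of the Id family, which encode inhibitors of helix-loop-helix transcription factors, were higher on every unstimulated KO array and were chosen here after their values were seen. Id1 read 49.1, 75.7 and 326 on the KO arrays, against 22.1 and 19.2 on the WT arrays, a difference of 2.27 (SE 1.06). Id2 read 2793, 1848 and 8223 on the KO arrays, against 1499 and 1251 on the WT arrays (1.35, SE 0.71) and Id3 1233, 1379 and 4865 on the KO arrays, against 819 and 775 on the WT arrays (1.34, SE 0.92). KO replicate 3 was the brightest array for all 3. In the stimulated mean Id1 was at 2.14 (SE 0.67, limma adjusted p = 0.258), Id2 at 0.81 and Id3 at 0.32. A pair of reductases that keep thiols reduced, also chosen after their values were seen, were higher on every KO array without KO replicate 3 standing out. Gsr, glutathione reductase, read 1927, 1569 and 1693 on the KO arrays, against 703 and 691 on the WT arrays, a difference of 1.31 (SE 0.37). Txnrd1, thioredoxin reductase 1, read 2311, 2019 and 2656 on the KO arrays, against 1149 and 1263 on the WT arrays, a difference of 0.94 (SE 0.26). None of these genes was called in unstimulated cells in limma.

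The probe set with the smallest p in unstimulated cells, 103842_at, has no gene name in the annotation, so its chromosome, X and Y included, is not known here. It read 68.1, 60.4 and 48.7 on the KO arrays, against 506 and 244 on the WT arrays, a difference of -2.59 (SE 0.37, limma adjusted p = 0.0718), and was at -3.90 at 100 min and -4.09 at 400 min, with a call in the stimulated mean (limma adjusted p = 1.36e-06). A second unnamed probe set, 161968_f_at, read 1143, 948 and 886 on the KO arrays, against 3341 and 3270 on the WT arrays. Its KO minus WT difference was -1.74 (SE 0.33) unstimulated and -1.56 in the stimulated mean (limma adjusted p = 0.00436). Probe sets of Ctse, the aspartic protease cathepsin E, disagreed. A dimmer one read 636, 380 and 724 on the KO arrays, against 154 and 62 on the WT arrays, a difference of 2.52 (SE 0.59), while the brighter pair gave -1.55 and -1.61, so no direction is given for Ctse.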
